A study of Homo sapiens with 4 samples.

Results

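The genes described here are neighbours on the long arm of chromosome 15, in band 15q26.1 and the bands beside it, and they were measured by RNA sequencing of FaDu cells. FaDu is an established human cell line from a squamous cell carcinoma of the hypopharynx. It was grown in MEM alpha Glutamax medium with 10% fetal bovine serum. In 1 group of 2 libraries the cells carried TINCR-HA-FLAG, TINCR with HA and FLAG epitope tags, and in the other group of 2 libraries they carried an empty vector. All 4 libraries share the parent line and medium. The promoter of the construct, and whether either line is a clone or a pool, were not given in the sources used here. The series describes the libraries of a group as technical replicates, so SDs, standard errors and adjusted p-values measure the spread between libraries and not between independent cultures.

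Members are all gene rows that start between 88467453 and 90935196 on chromosome 15 (GRCh38, positions of GENCODE release 29) and that hold at least 10 counts in 2 or more of the 4 libraries. The window spans 2467744 bases and holds 106 gene rows, of which 47 met the count rule, out of 60649 rows in the whole table and 19237 rows under the same count rule. The remaining 59 rows of the window lie below the rule, and 20 of them have no count in any library. The window was chosen by measured values, the fold changes between TINCR-HA-FLAG and empty vector in these 4 libraries. The differences of its members in that comparison are therefore a description. No p-value is given for a member, and the calls of members in the fit over all genes, given below as counts and names, are not independent evidence. Of the 47 members, 33 are protein-coding, and the other 14 are antisense, long noncoding and small RNAs and pseudogenes. There are 27 members on the plus strand and 20 on the minus strand.

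The window is not a gene family. Its genes encode an inhibitor of branched actin assembly (ARPIN), a subunit of a vesicle coat adaptor (AP3S2), a citric acid cycle enzyme of mitochondria (IDH2), an interferon-induced exonuclease (ISG20), a semaphorin (SEMA4B), a secreted bridge between dying cells and phagocytes (MFGE8) and a lipid hydrolase (ABHD2), beside a repair helicase, a peroxisome protein and zinc finger proteins. TINCR, the introduced gene, lies on chromosome 19. It was named as a long noncoding RNA of epidermal differentiation and also contains a reading frame for a small ubiquitin-like protein.

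Library totals ran from 17069533 to 22331602 counts. TINCR checks the labels. With empty vector 68 and 64 reads were counted for it, against 1921 and 2943 with TINCR-HA-FLAG, a log2 fold change of 4.93 (SE 0.17, edgeR adjusted p = 7.2e-07). Levels below are CPM, counts scaled to each library's total and its TMM factor. A count of 3, the limit that a count of 0 allows, corresponds to 0.135 to 0.177 CPM per library, and it covers counting error only. Markers of squamous cells were present, with the keratin gene KRT5 at 3314 to 4759 CPM and the transcription factor gene TP63 at 219 to 265 CPM. Levels in that list were uneven, with KRT6A at 5.10 to 12.8 CPM and SOX2 at 11.1 to 29.7 CPM. Among markers of other cell types, the leukocyte gene PTPRC had 3 to 6 counts per library and the endothelial gene PECAM1 had 4 to 8. Others in those lists had more, with 105 to 201 counts for CD14, 61 to 84 for LYZ, 156 to 272 for VWF and 407 to 746 for the fibroblast gene COL1A1.

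Promoter sequences for the window came from RefSeq (GRCh38.p14), as 250 bases before to 50 bases after an annotated start, 5′ to 3′ on the strand of the gene. They covered 57 starts of 35 members. The 5 printed here include those of the first gene (MRPS11) and of the gene whose sequence matched the most different motifs (ISG20). The adjacent pair AP3S2 and ARPIN, whose levels differed by similar folds, follows. The remaining one is of the last gene (UNC45A), which was lower where the members just before it, MAN2A2 and HDDC3, were higher. RefSeq starts can differ from the GENCODE positions used for the members. The sequences printed for MRPS11, ISG20, AP3S2 and UNC45A lie within the GENCODE spans of these genes. Capitals mark matches on either strand to a motif searched: the TATA box (TATAAA), the CCAAT box, the GC box (GGGCGG), the E-box (CACGTG), the core letters of an interferon-stimulated response element (GAAANNGAA), the AP-1 letters (TGANTCA) or the TEAD letters (GGAATG). The MRPS11 sequence lies on the plus strand at chr15:88467458-88467757 and has no match.
MRPS11: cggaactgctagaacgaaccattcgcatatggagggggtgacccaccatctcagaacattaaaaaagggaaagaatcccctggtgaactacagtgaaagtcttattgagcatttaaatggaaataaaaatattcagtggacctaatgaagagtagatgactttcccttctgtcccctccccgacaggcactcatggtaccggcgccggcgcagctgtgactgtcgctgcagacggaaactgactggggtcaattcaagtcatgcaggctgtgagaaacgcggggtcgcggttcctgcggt
The ISG20 sequence lies on the plus strand at chr15:88638766-88639065 and holds the GC box, E-box, interferon element and AP-1 letters.
ISG20: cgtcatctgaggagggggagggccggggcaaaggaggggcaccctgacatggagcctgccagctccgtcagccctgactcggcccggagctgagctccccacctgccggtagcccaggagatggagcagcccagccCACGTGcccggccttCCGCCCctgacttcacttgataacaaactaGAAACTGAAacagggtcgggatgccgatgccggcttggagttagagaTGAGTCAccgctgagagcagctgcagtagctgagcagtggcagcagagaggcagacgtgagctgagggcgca
The AP3S2 sequence lies on the minus strand at chr15:89893945-89894244 and has no match.
AP3S2: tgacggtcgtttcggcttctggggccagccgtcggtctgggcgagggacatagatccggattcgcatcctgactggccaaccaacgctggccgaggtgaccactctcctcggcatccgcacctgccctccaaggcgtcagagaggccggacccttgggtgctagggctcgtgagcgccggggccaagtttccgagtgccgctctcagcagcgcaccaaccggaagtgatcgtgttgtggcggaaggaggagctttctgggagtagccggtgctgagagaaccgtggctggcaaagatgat
The ARPIN sequence, of 1 of its annotated starts, lies on the minus strand at chr15:89912903-89913202 and holds the TEAD letters.
ARPIN: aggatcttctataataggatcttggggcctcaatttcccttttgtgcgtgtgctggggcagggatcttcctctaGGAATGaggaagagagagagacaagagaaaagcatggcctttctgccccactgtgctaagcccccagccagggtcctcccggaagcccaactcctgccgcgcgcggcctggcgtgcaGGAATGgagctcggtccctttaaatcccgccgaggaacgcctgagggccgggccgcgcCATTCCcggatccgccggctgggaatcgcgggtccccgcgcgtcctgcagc
The UNC45A sequence, of 1 of its annotated starts, lies on the plus strand at chr15:90935035-90935334 and holds the GC box letters.
UNC45A: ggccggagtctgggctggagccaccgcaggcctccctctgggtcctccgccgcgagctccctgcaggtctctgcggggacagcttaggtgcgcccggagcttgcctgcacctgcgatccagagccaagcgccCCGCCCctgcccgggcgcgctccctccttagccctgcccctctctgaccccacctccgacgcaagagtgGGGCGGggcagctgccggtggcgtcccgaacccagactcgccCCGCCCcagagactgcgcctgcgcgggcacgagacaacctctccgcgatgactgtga

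Over the 57 member promoters the median GC content was 65.0%, against 58.67% over all 35116 promoters of the same length. The median ratio of observed to expected CpG was 0.743 against 0.579. The GC box letters were found in 68.42% of member promoters and 44.95% of all promoters. The TATA box letters were found in 5.26% against 11.53%, and the CCAAT box in 33.33% against 34.61%. For the E-box the shares were 3.51% and 7.26%, for the AP-1 letters 3.51% and 7.71%, for the interferon element 8.77% and 8.11%, and for the TEAD letters 14.04% and 14.03%. Several promoters of a gene overlap, so these are shares of sequences and not of independent genes. A match describes letters and is no evidence of binding.

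The 47 members together took 0.229% and 0.231% of all counts with empty vector, against 0.348% and 0.349% with TINCR-HA-FLAG. The ratio of the mean CPM with TINCR-HA-FLAG to that with empty vector, called the fold below, was above 1 for 44 of the 47 members, where 51.1% of all rows under the count rule have such a ratio. In 35 of the 47, both TINCR-HA-FLAG libraries lay above both empty vector libraries, against 22.1% of all rows. The fold was from 1.3 to 1.7 in 19 members, against 9.62% of rows, and 2 or more in 13, against 2.78%. A further 5 had a fold between 1.7 and 2, 7 between 1 and 1.3, and 3 were below 1. The window was chosen for this difference, so nothing is read from these counts. The median log2 ratio was 0.66 over the 47 members and 0.01 over all rows.

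**Figure D1:**
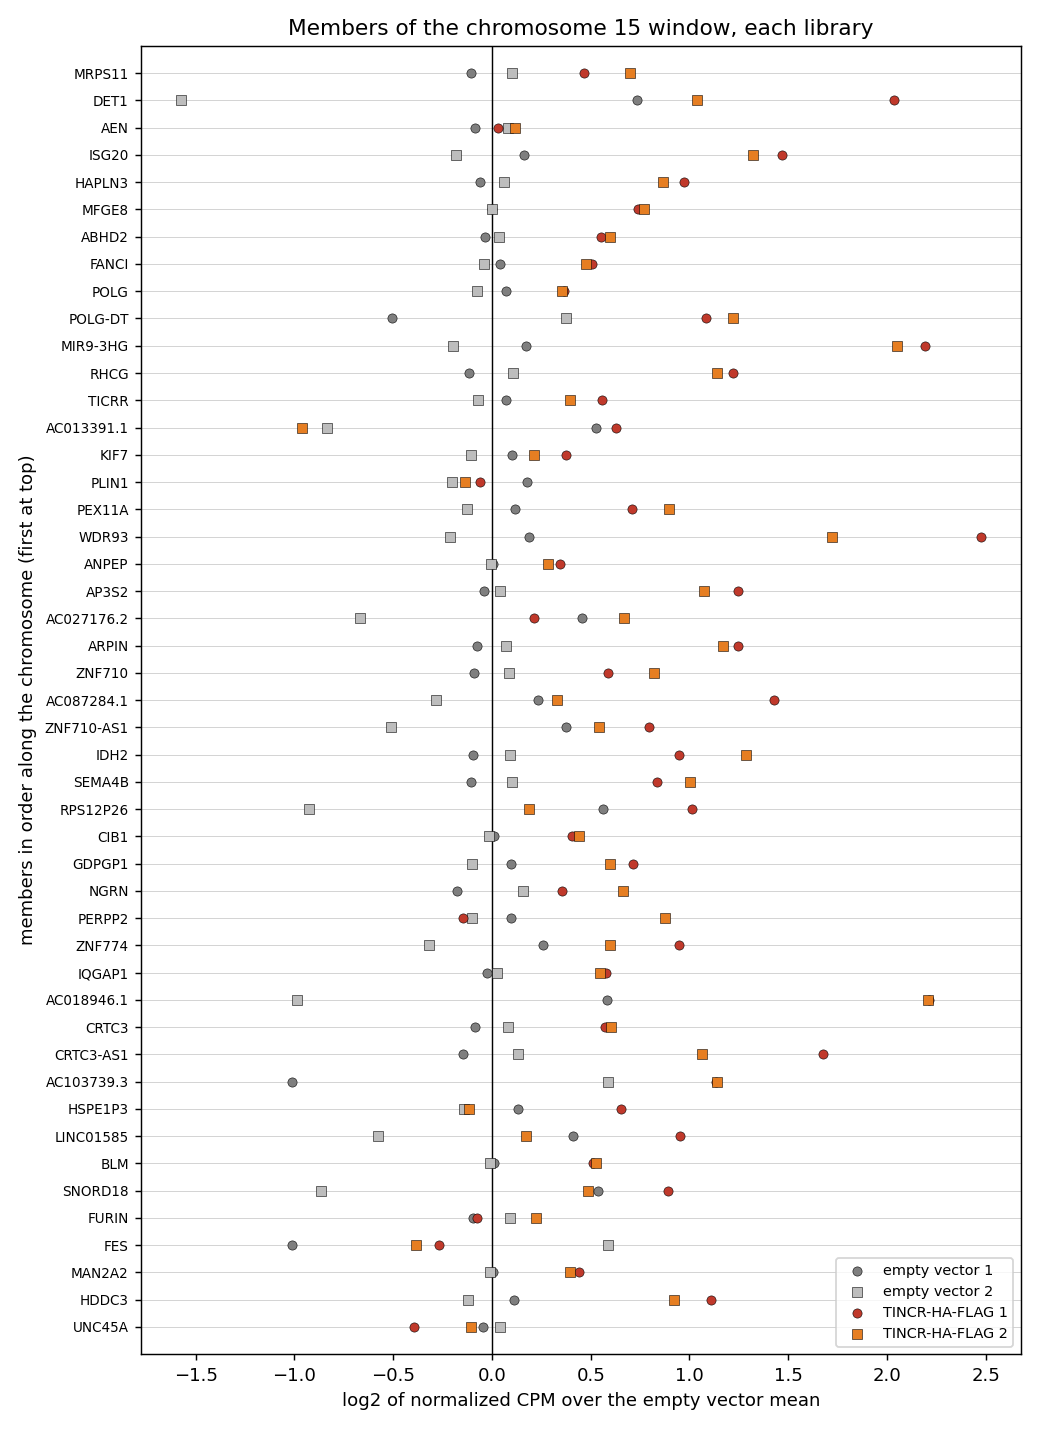
Log2 of the CPM in each library over the empty vector mean, for the 47 members in order of position from top to bottom. Each symbol is 1 library, and in 35 members both TINCR-HA-FLAG libraries lie to the right of both empty vector libraries. The same held for 22.1% of all rows under the count rule, and the window was chosen for this difference.

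Of the members, 44 passed the filter on low counts, and 11 of these had an adjusted p under 0.05 in the edgeR quasi-likelihood fit over 18771 genes, all of them higher with TINCR-HA-FLAG. Over all genes tested, 0.453% were called higher and 0.0959% lower, and the window's count is a description for the reason given. These 11 are ISG20, MFGE8, ABHD2, MIR9-3HG, AP3S2, ARPIN, ZNF710, IDH2, SEMA4B, CRTC3 and HDDC3. AC018946.1, SNORD18 and FES did not pass the filter. In 3 members both empty vector libraries held fewer than 10 counts, so these met the count rule only through the TINCR-HA-FLAG libraries. None met it only through the empty vector libraries. DET1, AC087284.1, RPS12P26, AC103739.3 and HSPE1P3 had at least 10 counts in both TINCR-HA-FLAG libraries and fewer than 10 in an empty vector library. The empty vector libraries alone would not have admitted them.

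The window begins with MRPS11, which encodes a protein of the small subunit of the mitochondrial ribosome. It measured 28.4 and 32.9 CPM with empty vector and 42.3 and 49.7 CPM with TINCR-HA-FLAG. The groups did not overlap, and the fold was 1.501. DET1, part of a COP1 ubiquitin ligase complex, had few reads, with 20 and 4 counts with empty vector against 53 and 32 with TINCR-HA-FLAG. Its empty vector libraries differed from each other by more than the groups' ranges were apart, and its log2 fold change of 1.57 had an SE of 0.61. AEN, which encodes a nuclease of the p53 response, measured 42.3 and 47.5 CPM and then 45.8 and 48.7 CPM. Its groups overlapped, and the fold was 1.05.

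ISG20 begins 3870 bases after AEN ends and encodes a 3′ to 5′ exonuclease induced by interferon. Its empty vector libraries held 3.97 and 3.13 CPM, and its TINCR-HA-FLAG libraries held 9.83 and 8.88 CPM. Both of the latter were above both of the former, with a fold of 2.64 and a log2 fold change of 1.39 (SE 0.23). The promoter printed above for ISG20 is the one in which 4 of the motifs matched. HAPLN3 encodes a link protein that ties hyaluronan to proteoglycans. It had 2.28 and 2.48 CPM with empty vector and 4.67 and 4.33 CPM with TINCR-HA-FLAG, a fold of 1.89 with no overlap.

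MFGE8, or lactadherin, bridges phosphatidylserine on dying cells to integrins of the cells that engulf them. It lies 3056 bases from HAPLN3 on the same strand. Levels were 21.1 CPM in both empty vector libraries and 35.2 and 35.9 CPM in the TINCR-HA-FLAG libraries. The libraries of a group lay very close together, and the log2 fold change was 0.75 (SE 0.12). ABHD2, a lipid hydrolase of the alpha/beta fold, measured 127 and 133 CPM against 191 and 197 CPM. Here too the pairs lay apart, at a fold of 1.49.

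FANCI and POLG overlap at their ends on opposite strands and share 458 exon bases, and TICRR and KIF7 further on share 589. With the strand setting unknown, reads there could have gone to either gene. FANCI pairs with FANCD2 in the repair of DNA crosslinks, and it measured 188 and 178 CPM with empty vector and 260.3 and 255 CPM with TINCR-HA-FLAG. Its fold was 1.41. POLG, the catalytic subunit of the mitochondrial DNA polymerase, had 157.5 and 142 CPM and then 193 and 192 CPM. It stood at a fold of 1.28, and neither gene's groups overlapped. POLG-DT, a transcript that starts 192 bases from POLG and runs the other way, had 17 and 31 counts with empty vector against 55 and 73 with TINCR-HA-FLAG, a fold of 2.23.

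MIR9-3HG, the host transcript of the microRNA gene MIR9-3, had the largest fitted log2 fold change among the 44 tested members, 2.11 (SE 0.37). It rested on low counts, 17 and 13 with empty vector against 74 and 81 with TINCR-HA-FLAG, or 0.992 and 0.767 CPM against 4.02 and 3.65 CPM. Every TINCR-HA-FLAG library was above every empty vector library. The microRNA gene itself lies inside the host, and its row was at 0 in all 4 libraries. Its mature products are shown because they are the known product of this transcript, with the seed in capitals. They lie on the plus strand at chr15:89368032-89368054 (5p) and chr15:89368071-89368092 (3p) in RefSeq.
hsa-miR-9-5p: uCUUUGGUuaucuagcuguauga
hsa-miR-9-3p: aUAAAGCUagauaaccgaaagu
These seeds differ from each other, and the libraries do not measure mature microRNAs.

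RHCG encodes an ammonia transporter of the Rh family. It had 1.87 and 2.18 CPM with empty vector and 4.72 and 4.46 CPM with TINCR-HA-FLAG, a fold of 2.27 without overlap. TICRR, or treslin, which is needed to fire replication origins, measured 174 and 158 CPM against 244 and 218 CPM. That is a fold of 1.39, again with the groups apart. KIF7, a kinesin of the cilium tip in Hedgehog signalling, overlaps the end of TICRR on the other strand. Its levels were 27.7 and 24.01 CPM and then 33.6 and 30.0 CPM, a fold of 1.23. AC013391.1, an antisense row inside TICRR, had 26 and 10 counts against 30 and 12, and its groups overlapped.

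PLIN1, a lipid droplet coat protein of fat cells, was near the bottom of the window's range of differences, with 2.69 and 2.06 CPM with empty vector and 2.28 and 2.16 CPM with TINCR-HA-FLAG. The groups overlapped and the fold was 0.936. PEX11A, which acts in peroxisome division, overlaps the PLIN1 gene span on the same strand. It measured 10.9 and 9.20 CPM against 16.5 and 18.8 CPM, a fold of 1.75 with no overlap. WDR93, a WD repeat gene that starts 14 bases from PEX11A in the opposite direction, had 4 and 3 counts with empty vector against 21 and 15 with TINCR-HA-FLAG. Its empty vector counts are at about the floor of 3, so its fitted log2 fold change of 2.08 (SE 0.72) depends on few reads. ANPEP, or aminopeptidase N (CD13), had 3.56 and 3.54 CPM and then 4.51 and 4.33 CPM, a fold of 1.24 without overlap.

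AP3S2 and ARPIN follow each other on the minus strand with 367 bases between them. AP3S2 encodes a small sigma subunit of AP-3, the adaptor that sorts cargo to lysosomes and related organelles. It measured 15.4 and 16.2 CPM with empty vector and 37.4 and 33.3 CPM with TINCR-HA-FLAG. The groups lay far apart, with a fold of 2.24 and a log2 fold change of 1.16 (SE 0.13). ARPIN encodes an inhibitor of the Arp2/3 complex, which builds branched actin at the leading edge. Its levels were 74.0 and 82.0 CPM against 185 and 175 CPM, at a fold of 2.31 and a log2 fold change of 1.21 (SE 0.11). Both genes were thus higher in both TINCR-HA-FLAG libraries, by folds that differ by less than their standard errors.

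A separate row for transcripts that read through from ARPIN into AP3S2 was at 0 in all 4 libraries. It shares 21.143% of the exon bases of AP3S2 and part of those of ARPIN, so reads there could have been assigned in more than 1 way. AP3S1 on chromosome 5, the close relative of AP3S2, measured 42.1 and 50.4 CPM with empty vector and 41.5 and 43.1 CPM with TINCR-HA-FLAG (log2 fold change -0.13, SE 0.12, edgeR adjusted p = 0.80). AC027176.2, a processed pseudogene within the AP3S2 span on the other strand, had 10 to 33 counts, and its groups overlapped.

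ZNF710, a zinc finger gene, measured 43.2 and 48.8 CPM with empty vector and 69.1 and 81.3 CPM with TINCR-HA-FLAG. The fold was 1.64, without overlap. Its antisense partner ZNF710-AS1 had 73 and 39 counts against 105 and 106, and the intronic row AC087284.1 had 13 and 9 against 32 and 18. Both were higher in both TINCR-HA-FLAG libraries. ZNF710-AS1 shares 29.5% of its exon bases with genes on the other strand, ZNF710 among them. With the strand setting unknown, reads there could have gone to either gene. IDH2, the NADP-dependent isocitrate dehydrogenase of mitochondria, lies just past ZNF710-AS1 and measured 46.4 and 52.7 CPM against 95.5 and 121 CPM. The lower TINCR-HA-FLAG library was still well above the higher empty vector library, with a fold of 2.18 and a log2 fold change of 1.13 (SE 0.13).

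SEMA4B, a transmembrane semaphorin of class 4, measured 234 and 270.2 CPM with empty vector and 449 and 506 CPM with TINCR-HA-FLAG. The groups did not overlap, with a fold of 1.89 and a log2 fold change of 0.92 (SE 0.12). RPS12P26, a ribosomal protein pseudogene within SEMA4B, had 6 to 25 counts and overlapping groups. CIB1, a calcium and integrin binding protein, measured 44.2 and 43.5 CPM against 58.1 and 59.5 CPM, a fold of 1.34. GDPGP1, a GDP-glucose phosphorylase, starts within CIB1 on the other strand. Its levels were 8.46 and 7.37 CPM and then 13.0 and 11.99 CPM, a fold of 1.58. In neither gene did the groups overlap. CIB1 shares 14.5% of its exon bases with GDPGP1. With the strand setting unknown, reads there could have gone to either gene.

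NGRN, a neugrin gene with a role in mitochondrial ribosome assembly, measured 32.2 and 40.5 CPM with empty vector and 46.6 and 57.7 CPM with TINCR-HA-FLAG. The groups stayed apart at a fold of 1.43, although the second library of each group was the higher by a like amount. PERPP2, a pseudogene that lies wholly within NGRN exons, had 19 to 49 counts and overlapping groups. The zinc finger gene ZNF774 had 4.49 and 3.01 CPM against 7.22 and 5.68 CPM, a fold of 1.72. IQGAP1, a scaffold that links Rac1 and Cdc42 to actin, measured 588 and 608 CPM against 892 and 874 CPM. Its fold was 1.48, and its groups did not overlap. AC018946.1, antisense within IQGAP1, had 3 and 1 counts against 10 and 12, near the floor.

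CRTC3, a coactivator of the cAMP response factor CREB, measured 66.9 and 75.03 CPM with empty vector and 105 and 108 CPM with TINCR-HA-FLAG. The pairs did not overlap, at a fold of 1.502. Several noncoding rows lie within or just beyond its span. CRTC3-AS1 had 10 and 12 counts against 38 and 30, and AC103739.3 had 4 and 12 against 19 and 23. CRTC3-AS1 shares 10.8% of its exon bases with CRTC3 on the other strand, so reads there could have gone to either gene. The pseudogene HSPE1P3 (9 to 17 counts) and LINC01585 (15 to 47) had overlapping groups. BLM, the RecQ helicase mutated in Bloom syndrome, starts 186 bases from CRTC3-AS1 and measured 49.0 and 48.2 CPM against 69.5 and 70.1 CPM. That is a fold of 1.43, with each pair within a narrow range. SNORD18, a small nucleolar RNA row within BLM that belongs to a multicopy family, had 3 to 11 counts and overlapping groups.

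Past BLM the differences were uneven. FURIN, the convertase that cleaves many secreted precursors, measured 93.3 and 106 CPM with empty vector and 94.7 and 116 CPM with TINCR-HA-FLAG. Its groups overlapped, and the fold was 1.06. FES, a tyrosine kinase gene next to FURIN, had 5 and 15 counts against 9 and 10, with overlap. MAN2A2, a Golgi mannosidase of N-glycan processing, measured 73.2 and 72.4 CPM against 98.8 and 95.9 CPM, a fold of 1.34 with the groups apart. HDDC3, a hydrolase related to bacterial enzymes of the stringent response, had 7.06 and 6.02 CPM against 14.1 and 12.4 CPM. Both TINCR-HA-FLAG libraries were above both others, with a fold of 2.03 and a log2 fold change of 1.01 (SE 0.19).

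UNC45A, a chaperone of myosin, closes the window and was the only member whose TINCR-HA-FLAG libraries both lay below both empty vector libraries. It measured 97.8 and 104 CPM with empty vector and 76.7 and 93.5 CPM with TINCR-HA-FLAG, a log2 fold change of -0.24 (SE 0.12). UNC45A and HDDC3 lie on opposite strands and share 5017 bases of gene span. The strand setting of the counting was not given in the sources used here, so reads from the shared exons could have gone to either gene.

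**Figure D2:**
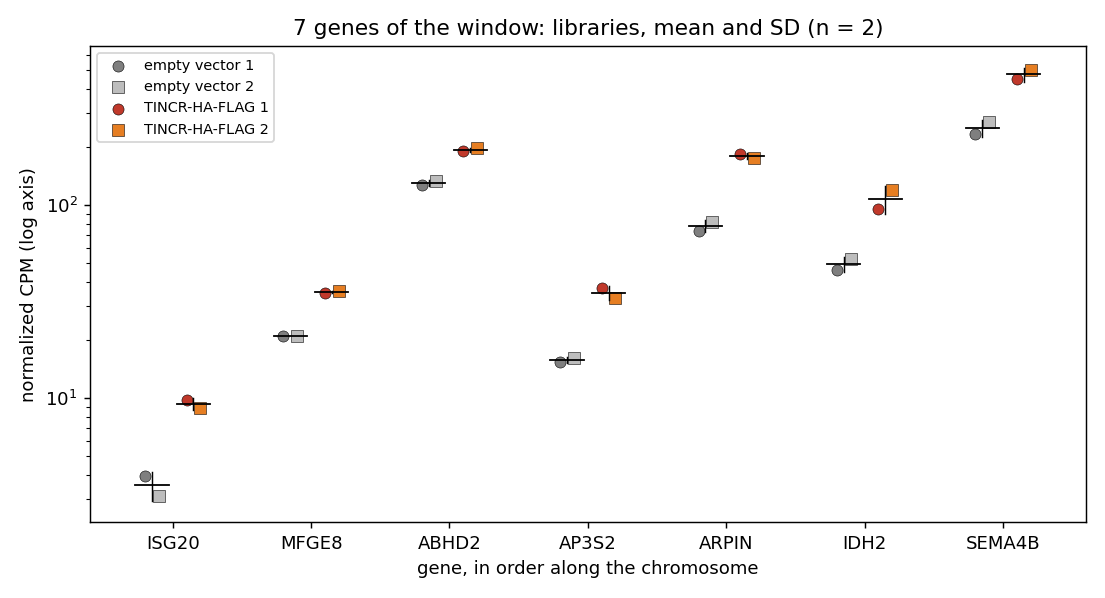
CPM (log axis) of ISG20, MFGE8, ABHD2, AP3S2, ARPIN, IDH2 and SEMA4B in each library. Horizontal bars are group means and vertical bars the SD (n = 2). In all 7 genes both TINCR-HA-FLAG libraries lie above both empty vector libraries, as in 22.1% of all rows under the count rule. The window was chosen for this difference, so nothing is read from the count.

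Compared per kilobase of exon (RPKM), which allows genes to be ranked, the members spanned a wide range. IQGAP1 was highest, with a mean of 51.8 RPKM with empty vector and 76.6 RPKM with TINCR-HA-FLAG. SEMA4B was next at 36.0 and 68.2 RPKM, then CIB1 at 29.8 and 39.9 RPKM. IDH2 stood at 17.6 and 38.4 RPKM and ARPIN at 9.08 and 21.0 RPKM. AP3S2 was lower, at 1.71 and 3.83 RPKM, and ISG20 lower still at 0.482 and 1.27 RPKM. WDR93, at 0.0504 and 0.223 RPKM, was lowest with empty vector, and FES, at 0.139 and 0.111 RPKM, with TINCR-HA-FLAG. Bulk RNA cannot tell fewer cells that express a gene from less RNA per cell.

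**Figure D3:**
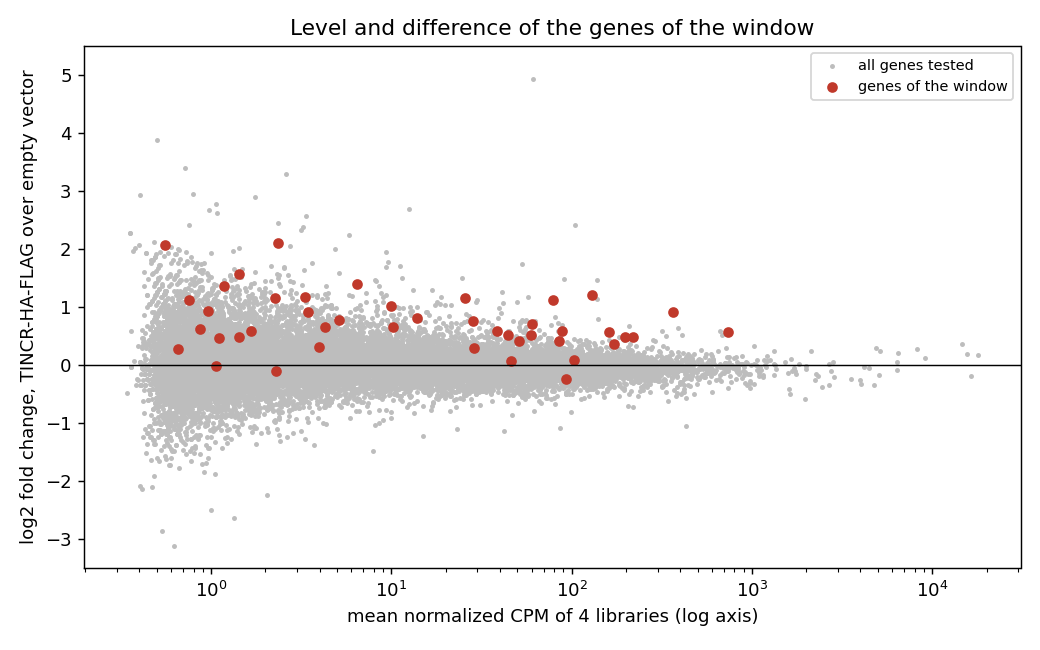
Log2 fold change against the mean CPM of the 4 libraries (log axis) for all 18771 genes tested, in grey, and for the 44 tested members, in red. Most members lie above 0 at low and high levels, and the spread of all genes is wider at low levels.

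The size of the differences was not the same across levels. Members with fewer than 100 counts in at least 1 library numbered 23, with a median log2 ratio of 0.78. They include the 3 that met the count rule only through the TINCR-HA-FLAG libraries. They also include members, such as DET1, that the empty vector libraries alone would not have admitted. Both kinds of selection favour high ratios. The 24 members with at least 100 counts in each library had log2 ratios from -0.24 (UNC45A) to 1.21 (ARPIN), with a median of 0.57. Of these, 23 were positive, 13 had a fold from 1.3 to 1.7, and ARPIN, AP3S2, IDH2 and HDDC3 had folds of 2 or more. Over all 10569 rows with that many counts the median was -0.02, and 46.2% were positive. Within a group, the same 24 members differed between libraries by -0.25 to 0.33 (empty vector, second over first) and by -0.19 to 0.34 (TINCR-HA-FLAG) on the log2 scale. Those within-group differences were on both sides of 0 in each group.

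Pairs of genes that start within 1000 bases of each other and run in opposite directions numbered 5, counting MRPL46 just outside the window. Both partners were higher with TINCR-HA-FLAG in all 5 pairs. The window was chosen for this difference, and 44 of its 47 members had a ratio above 1. Nothing is therefore read from the count of pairs. The log2 ratios were 0.40 and 0.59 for MRPL46 and MRPS11, 0.36 and 1.15 for POLG and POLG-DT, and 0.81 and 2.15 for PEX11A and WDR93. For CIB1 and GDPGP1 they were 0.42 and 0.66, and for CRTC3-AS1 and BLM 1.40 and 0.52. The partner with fewer counts had the larger ratio for POLG-DT, WDR93, GDPGP1 and CRTC3-AS1, and the smaller in the pair of MRPL46 and MRPS11. WDR93 is 1 of the 3 members that met the count rule only through the TINCR-HA-FLAG libraries.

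The window's edges follow the same fold changes, so the genes beside them are given without a test. MRPL46, a mitochondrial ribosomal protein gene that starts 34 bases from MRPS11 and runs away from it, measured 12.6 and 12.03 CPM with empty vector and 17.3 and 15.2 CPM with TINCR-HA-FLAG (log2 fold change 0.40, SE 0.16). It was the only tested gene in the stretch of equal length before the window. The next tested gene before it, KLHL25, lies 2708.1 kb from the edge and had a log2 fold change of 0.09, and LINC02883 beyond it had 0.46 (SE 0.50). Past the other end, RCCD1-AS1 had -0.11 (SE 0.49), RCCD1 had 0.01 with 65.6 and 57.0 CPM against 61.1 and 62.1 CPM, and PRC1 had -0.26 (SE 0.34). Inside, the last 3 members ran from 0.42 (MAN2A2) through 1.01 (HDDC3) to -0.24 (UNC45A), so the far edge falls within a stretch of mixed sign.

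In the stretch of equal length after the window, 5 of 16 tested genes had positive log2 fold changes, with a median of -0.14, and none was called. Over the other 608 tested genes of chromosome 15, the median was 0.01 and 1 was called, higher. Medians by chromosome ran from -0.10 (chromosome 2) to 0.10 (chromosome 9), with 0.03 for chromosome 15. The copy number of this segment was not measured in these data.

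**Figure D4:**
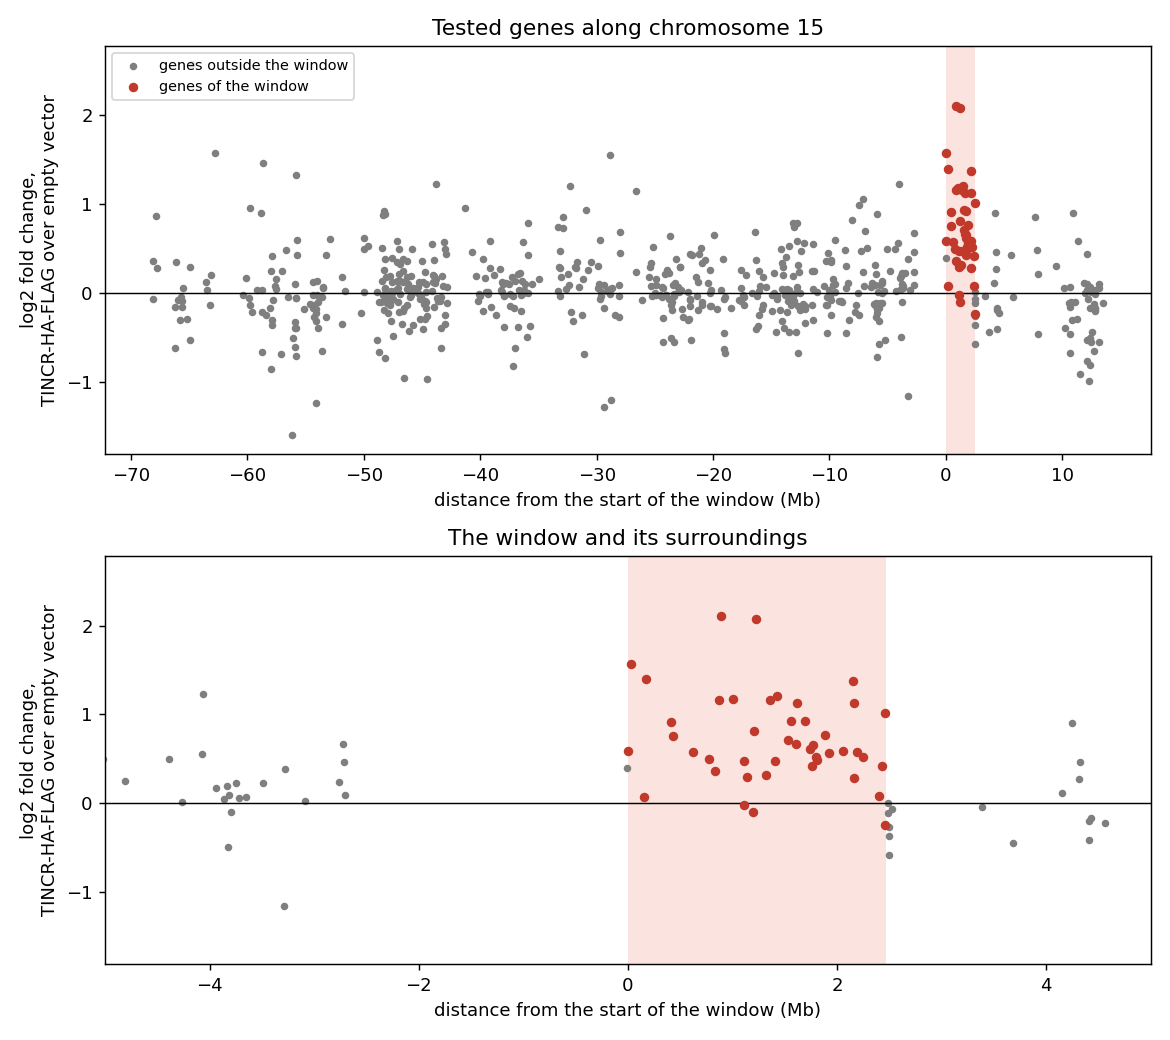
Log2 fold change of each tested gene of chromosome 15 against its distance from the start of the window in megabases, for the whole chromosome above and for the surroundings below. The window is shaded, and 41 of its 44 tested genes lie above 0, against 317 of 608 in the rest of the chromosome outside the flanks.

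The pathways to which members belong were followed through their genes outside the window. For comparison, 50.7% of all genes tested had a positive log2 fold change. Among 26 tested genes of the Arp2/3 complex and its regulators, beside ARPIN, 8 had positive log2 fold changes, the median was -0.05, and none was called in either direction. Of 16 AP-3 and BLOC-1 genes, 8 were positive (median 0.03), and of 26 genes of isocitrate dehydrogenases and the citric acid cycle, 4 were (median -0.09), with none called. Genes near ISG20 in function divided by list. Of 12 other small RNA exonucleases 4 were positive (median -0.08) and none was called. Of 42 interferon-stimulated genes 40 were positive (median 0.30) and 5 were called, all higher.

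Among these interferon-stimulated genes, IFI27 rose from 47.5 and 48.1 CPM to 127 and 142 CPM (log2 fold change 1.49, SE 0.11, edgeR adjusted p = 0.00027). OAS2, a sensor of double-stranded RNA, rose from 17.6 and 20.0 CPM to 40.2 and 41.3 CPM (1.12, SE 0.12, edgeR adjusted p = 0.0041). MX1, an antiviral GTPase, rose from 25.04 and 28.0 CPM to 52.0 and 52.5 CPM (0.98, SE 0.12, edgeR adjusted p = 0.0047). In each of the 3 the groups lay wide apart. The transcription factor gene IRF7 rose from 19.0 and 19.4 CPM to 34.0 and 34.8 CPM (0.84, SE 0.12, edgeR adjusted p = 0.016). The fifth called gene, IFI44L, is named because the count is small, and it rose from 21.8 and 15.9 CPM to 46.9 and 33.0 CPM (1.08, SE 0.19, edgeR adjusted p = 0.044). With a minimum of 1 CPM in place of the filter its adjusted p in edgeR was 0.054.

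Semaphorins, plexins and neuropilins beside SEMA4B had 16 of 26 positive (median 0.06), and SEMA3E was called, rising from 9.63 and 11.9 CPM to 20.7 and 19.9 CPM (log2 fold change 0.92, SE 0.16, edgeR adjusted p = 0.039). Without empty vector replicate 1 that edgeR adjusted p was 0.13. In the list of phosphatidylserine bridging and engulfment (MFGE8), 8 of 19 were positive, and of the ABHD hydrolases (ABHD2), 8 of 18, with medians of -0.02 in both. The Fanconi and BLM partners had 12 of 23 positive (median 0.04), the treslin partners 4 of 13 (-0.05), and the mitochondrial DNA replication genes 7 of 14 (-0.01). Hedgehog genes had 8 of 13 positive (0.07), perilipins and peroxisome division genes 6 of 14 (-0.02), CREB coactivators and their kinases 9 of 12 (0.04), and proprotein convertases 2 of 6 (-0.20). No gene was called in the lists named from MFGE8 to the convertases. In the aggrecan, hyaluronan and link protein list (HAPLN3), 2 of 6 were positive (median -0.20), and CD44, the hyaluronan receptor, fell from 89.1 and 86.5 CPM to 55.8 and 62.0 CPM (log2 fold change -0.57, SE 0.11, edgeR adjusted p = 0.049). Leaving out either empty vector library, or TINCR-HA-FLAG replicate 1, ended the CD44 call, at edgeR adjusted p-values of 0.055, 0.063 and 0.060.

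Squamous markers had 3 of 12 positive (median -0.16). KRT14, a basal keratin, fell (log2 fold change -1.08, SE 0.15, edgeR adjusted p = 0.014), and SOX2 rose (1.03, SE 0.18, edgeR adjusted p = 0.041). The summed CPM of 8 fibroblast markers was 46.6 and 42.6 with empty vector against 51.4 and 51.5 with TINCR-HA-FLAG, and that of 7 endothelial markers was 12.1 and 12.4 against 15.2 and 15.6, of which VWF made up 9.11 and 10.4 against 13.3 and 12.3. That of 8 leukocyte markers was 12.4 and 13.4 against 9.72 and 13.4. None of the 10 markers of these types that were tested was called. Their part in the differences of the window was not tested.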

How the data were processed

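RNA of 4 FaDu libraries, 2 with TINCR-HA-FLAG and 2 with empty vector, was extracted with an RNeasy kit and prepared with a NEBNext Ultra kit, per the labels' protocols. The authors deposited whole-number read counts per Ensembl gene, not normalized. Per the submitters' processing notes, the tools included STAR 2.7.9a, bcl2fastq 2.20.0.422 and DESeq2 1.32.0, on GRCh38. The counting program, strand setting and annotation release were not given in the sources used here. The table has 12 further library columns, which were not used.

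Groups came from the sample titles. Positions came from GENCODE release 29, which placed 58381 of 60649 rows (2268 were not placed), and 60463 rows had a symbol. Counts were normalized by TMM, filtered with filterByExpr and fitted in edgeR 4.0.16 (R 4.3.3, quasi-likelihood test) over 18771 genes with Benjamini-Hochberg adjustment and a threshold of 0.05. What edgeR names the common biological coefficient of variation was 0.118. Here it measures the spread between libraries of a group and not between independent cultures. The procedure was also run on simulated counts, drawn independently for each gene and library. No result given here rests on that run. Libraries of a group differed by more than sampling noise (chi-square per degree of freedom 10.5 and 14.3) and were kept as separate libraries. CPM used the library totals over tested genes times the TMM factor, and RPKM divides CPM by the length of merged exons. Each SE was derived from the quasi-likelihood test, as the absolute log2 fold change over the square root of its F statistic.

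Members and lists were chosen with earlier results of these data known. All members are named in order of position, with values per library for the 7 genes that mark the window, members called by edgeR and members with at least 100 counts in every library. Outside the window, the nearest 3 tested genes at each end and at most 4 called genes per list are named, with the interferon-stimulated gene IFI44L added after its values were seen. Alternatives were DESeq2 1.42.0, other scaling and filters, a replicate block and leaving out each library.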

Additional observations from a re-analysis of the deposited data

How the results depend on the processing

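The alternatives refit the libraries on which the window was chosen, so members' calls under them are descriptions and no support. Of the 11 window genes called by edgeR, AP3S2, ARPIN, IDH2 and ISG20 were called under each of the 11 alternatives. With almost no filter on low counts 5 members were called, and the calls of ABHD2, CRTC3, HDDC3, MFGE8, MIR9-3HG and ZNF710 were lost. Leaving out 1 library at a time gave 8 to 15 called members. Without empty vector replicate 1 the calls of ABHD2, CRTC3, SEMA4B and ZNF710 were lost, and without empty vector replicate 2 those of ABHD2, HDDC3 and MIR9-3HG. The RLE scaling lost ABHD2 and CRTC3, and a minimum of 1 CPM lost HDDC3. The median over tested members was 0.76 among the 24 that share no exon with another gene, against 0.60 over all 44. AEN and FURIN, close to 0, changed sign between alternatives.

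Over all genes, the numbers called higher and lower were 131 and 59 with DESeq2, 47 and 6 with almost no filter, and 69 to 226 and 45 to 160 with 1 library left out. The replicate numbers correlated in their deviations at 0.37, but 2 pairs do not establish pairing. With a replicate block 1317 genes were called higher and 1316 lower, and 31 members were called higher and UNC45A lower (log2 fold change -0.25). The list median of the ABHD hydrolases ran from -0.075 to 0.11 with 1 library left out, and that of the proprotein convertases from -0.21 to 0.047, the latter positive without TINCR-HA-FLAG replicate 2. With almost no filter, the calls of IFI44L, SEMA3E, CD44 and SOX2 were lost as well (edgeR adjusted p-values of 0.090, 0.084, 0.15 and 0.11). The causes were not tested. Members with few reads, such as DET1 and WDR93, are limited by depth.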
